A study of Mus musculus with 32 samples.

Results

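The comparison described here sets interscapular brown adipose tissue (iBAT) taken in the middle of the dark phase against the same tissue taken in the middle of the light phase. Its members are 8 of the 32 RNA-sequencing libraries of the series, chosen by time point alone: 4 labelled Zeitgeber Time (ZT) 18 and 4 labelled ZT6, where ZT0 is lights on. The series followed iBAT every 3 h around the day, with 4 libraries at each time point. All groups were male C57BL/6J mice, 10 weeks old, kept on a 12 h light and 12 h dark cycle with free access to chow, not fasted and with no treatment named, so the 2 groups differ by the 12 h between them and, among what the labels name, by the sequencing lane. The mice were killed with CO2 and the tissue was snap-frozen, and every value is an average over adipocytes and all other cells of the depot, and fewer cells of a type cannot be told apart from less RNA per cell. The 4 libraries of ZT6 were sequenced on lane 2 and the 4 of ZT18 on lane 4, and lane and time of day cannot be told apart in this comparison by itself.

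Brown adipocytes burn fatty acids and glucose to make heat through uncoupling protein 1 (UCP1), and they do so under the control of noradrenaline acting on beta-adrenergic receptors. They take up fatty acids from circulating lipoproteins, store them as triglyceride in many small droplets, and can also make fatty acids from glucose. Like most cells they hold a molecular clock, in which BMAL1 (gene Arntl) and CLOCK switch on genes through E-boxes, PER and CRY proteins shut this off, REV-ERB alpha and beta (Nr1d1 and Nr1d2) repress Arntl and Nfil3 through ROR elements, and DBP, TEF and HLF act on D-boxes against NFIL3. Mice feed and move mainly in the dark, so ZT18 lies in the active phase and ZT6 in the rest phase.

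Library depth was even, with 17120415 to 17603189 counts in genes per library at ZT6 and 17501583 to 18254659 at ZT18. In all, 3 libraries stood apart: 15 skeletal muscle markers summed to 2072 CPM (counts scaled to the size of each library) in ZT6 replicate 2, to 2410 CPM in ZT18 replicate 3 and to 6066 CPM in ZT18 replicate 4, against 55.1 to 75.4 CPM in the other 5. The first principal component of the 8 libraries (53.9% of the variance) separated these 3 from the rest, and the second (21.9%) separated the time points, so most counts of calls below are also given without these 3 libraries. The labelled tissue was borne out by its markers, since the 10 brown adipocyte markers summed to 4455 to 7663 CPM at ZT6 and to 4095 to 5290 CPM at ZT18, and 6 markers of adipocytes of any kind to 8719 to 10912 CPM and 9533 to 10751 CPM. Sums of red blood cell, lymphocyte, macrophage, endothelial, fibroblast and nerve markers overlapped between the time points. Those of pericytes and smooth muscle did not (810 to 964 CPM at ZT6, 669 to 778 CPM at ZT18), and neither did the neutrophil and mast cell list (11.6 to 45.8 and 68.9 to 121 CPM), which moved through Kit, while its members S100a8, S100a9 and Ly6g stayed under 0.45 CPM in all 8 libraries. The white adipocyte list (51.7 to 88.2 and 152 to 260 CPM) moved with Lep, the 1 called of its 6 tested members, whose log2 fold changes were all positive (median 0.58), while Hoxc9 and Hoxc10 were at 0 in all 8. The part of these cells in the results was not tested.

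At mid dark, 1269 genes were higher and 1346 were lower than at mid light, out of 15505 tested (edgeR quasi-likelihood test, Benjamini-Hochberg adjusted p below 0.05). These calls were 16.9% of the tested genes, 8.18% in the higher and 8.68% in the lower direction. Most changes were small, with a median fold of 1.40 among the called genes, and only 176 of the higher and 257 of the lower genes differed by more than 2-fold. In 3544 genes (22.9% of those tested) no mouse of one time point overlapped with any mouse of the other, and 2187 of the called genes were among these. The median log2 fold change over all tested genes was 0.00. Dark-phase and light-phase mice are those of ZT18 and ZT6. Below, a fold change of a gene is the fitted log2 difference, ZT18 minus ZT6, and the median of a list of genes is read against that of all genes. Counts of called members of a list are read against the 8.18% higher and 8.68% lower of all tested genes. Leaving out each of the 8 mice in turn left 1271 genes called in every fit. Without the 3 libraries with muscle transcripts, 1536 genes were called, of which 1373 were among the calls of all 8 mice, with the same sign.

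**Figure D1:**
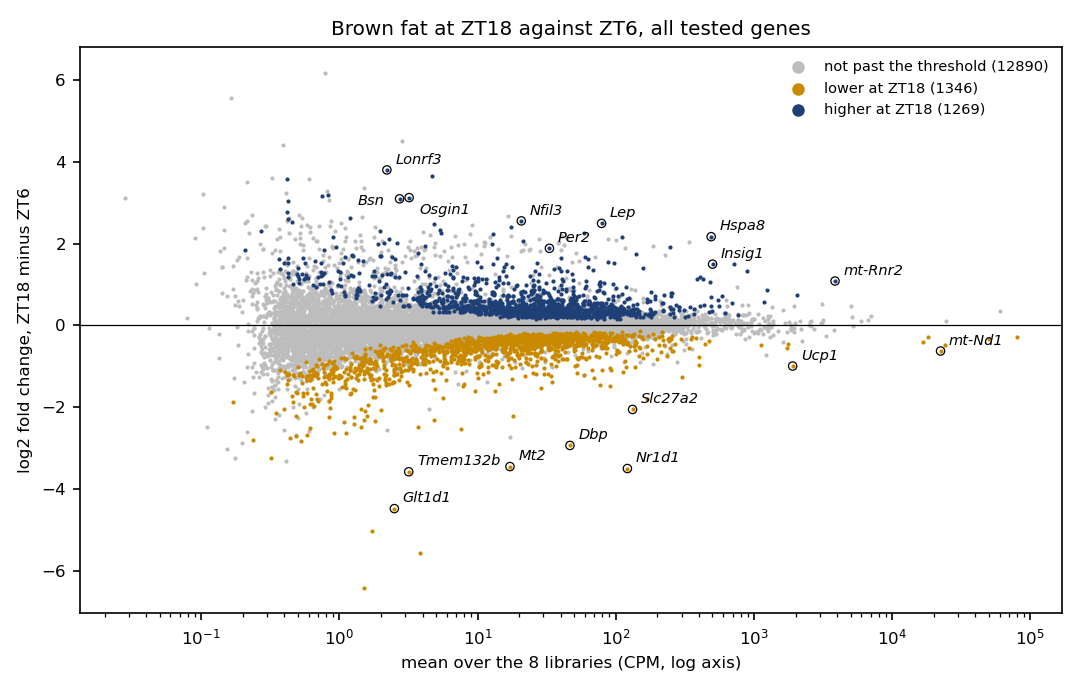
Each point is 1 of the 15505 tested genes, with its mean level over the 8 mice (CPM, log axis) on the horizontal axis and the fitted log2 fold change, ZT18 minus ZT6, on the vertical axis. The 1269 higher and 1346 lower genes are coloured, and labelled genes are described in the text: Lonrf3, Osgin1 and Nfil3 lie far above zero, Glt1d1, Nr1d1, Mt2 and Dbp far below.

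The rest of the day places these calls. The genes were chosen on ZT18 and ZT6, which fixes in part where they peak, so the following shares only describe them. Of the genes higher at ZT18, 551 (43.4%) had their highest mean of all 8 time points at ZT18 itself, 289 (22.8%) at ZT0, 272 (21.4%) at ZT15 and 54 (4.26%) at ZT21, which was sequenced on the same lane as ZT18. Among all tested genes, 17.7% were highest at ZT0, 13.9% at ZT15 and 9.73% at ZT21. Of the genes lower at ZT18, 757 (56.2%) were highest at ZT6 and 268 (19.9%) at ZT9, where 11.1% of all tested genes were highest. A second pair of time points, ZT15 and ZT9, straddles the onset of darkness, shares no library with ZT18 and ZT6, and was sequenced on 1 lane. Between ZT15 and ZT9, 1213 genes differed (7.82%), and 686 genes were called in both comparisons with the same sign, which is 26.2% of the calls of mid dark against mid light and 56.6% of those of ZT15 against ZT9. Only 2 genes were called in both with opposite signs. A 24 h cosine fitted to all 32 libraries with lane as a further term called 2935 genes, among them 1520 (58.1%) of the calls of mid dark against mid light, with the same sign.

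The largest rises at mid dark, among genes with a symbol, at least 1 CPM on average and no overlap between the groups, included those of Lonrf3, Osgin1, Bsn, Nfil3 and Lep. Lonrf3, a RING-finger protein, stood at 0.597, 0.0591, 0.393 and 0.111 CPM in the 4 mice of ZT6 and 3.75, 4.69, 3.32 and 4.75 CPM in those of ZT18 (log2 fold change 3.81, SE 0.44, adjusted p = 1.51e-06), so that each value of ZT6 was below 1 CPM. Its mean was 2.10 CPM at ZT0 and 1.69 CPM at ZT3. Lep, which encodes the satiety hormone leptin, amounted to 26.0, 23.1, 29.9 and 16.2 CPM in the 4 mice of ZT6 and 143, 167, 129 and 97.5 CPM in those of ZT18 (log2 fold change 2.50, SE 0.45, adjusted p = 4.28e-04), and the groups were far apart. Ppp1r3b, which targets protein phosphatase 1 to glycogen and promotes glycogen synthesis, was at 399, 342, 529 and 229.8 CPM at ZT6 and 1392, 1397, 813 and 647 CPM at ZT18 (log2 fold change 1.503, SE 0.32, adjusted p = 0.00179). Its lowest dark-phase mouse was above its highest light-phase mouse. Osgin1, an oxidative stress-induced growth inhibitor, rose with a log2 fold change of 3.13 (adjusted p = 1.74e-05), Bsn, a scaffold of presynaptic zones, with 3.10 (adjusted p = 0.00166), and Ttpa, the alpha-tocopherol transfer protein, with 2.11 (adjusted p = 0.00102). The cosine with lane gave Ttpa (log2 fold change 1.43, adjusted p = 0.0620), short of the threshold. Between ZT15 and ZT9, Lep (log2 fold change 0.82, adjusted p = 0.263), Osgin1 (1.20, 0.0632), Bsn (1.91, 0.0658) and Ttpa (0.49, 0.504) were not called. Lep averaged 113 CPM (SD 83.9) at ZT9. Phyhip (log2 fold change 2.25) and Smtnl2 (2.24) rose as well. Mir6392 (log2 fold change 2.32) is uncertain, since its hairpin lies inside Pnpla3 on the same strand (chr15:84168270-84168377 within chr15:84167837-84187236, GRCm38.p6) and reads of both cannot be told apart.

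By the same rule, the deepest falls at mid dark were those of Glt1d1, Tmem132b, Nr1d1, Mt2 and Dbp. Glt1d1, a putative glycosyltransferase, was measured at 5.73, 3.73, 4.54 and 5.18 CPM in the 4 mice of ZT6 and 0.110, 0.0552, 0.394 and 0.273 CPM in those of ZT18 (log2 fold change -4.48, SE 0.66, adjusted p = 3.64e-05). Mt2, a metallothionein that binds zinc and copper, stood at 39.3, 25.7, 34.8 and 26.2 CPM in the 4 mice of ZT6 and 2.09, 1.82, 1.80 and 5.73 CPM in those of ZT18 (log2 fold change -3.45, SE 0.48, adjusted p = 1.67e-05), and its relative Mt1 at 82.5, 73.3, 85.1 and 83.6 CPM at ZT6 and 49.2, 38.4, 48.5 and 54.3 CPM at ZT18 (log2 fold change -0.77, SE 0.16, adjusted p = 0.00134). In Mt2 the dark-phase mouse with the most muscle transcripts was the highest of its group and still below every light-phase mouse. Il1rn, the interleukin-1 receptor antagonist, amounted to 1.91, 0.769, 1.51 and 3.01 CPM at ZT6 and 0.441, 0.276, 0.338 and 0.327 CPM at ZT18 (log2 fold change -2.36), and Cldn1, a tight-junction protein, to 3.16, 3.43, 10.7 and 15.0 CPM at ZT6 and 1.05, 0.773, 1.69 and 2.95 CPM at ZT18 (log2 fold change -2.32). Both were lower in each of the 4 dark-phase mice. Rgs11 (log2 fold change -2.49), a regulator of G-protein signalling, and Rgs9bp (-2.35), which anchors proteins of that family, fell too, as did Tmem132b (-3.58), Trim66 (-2.31) and the non-coding AC117700.1 (-2.63) and BC037032 (-2.23), of whose exons 6.55% lie opposite Oxct1. The cosine with lane did not call 3 of these falls, those of Rgs11 (log2 fold change -1.32, adjusted p = 0.199), Cldn1 (log2 fold change -2.04, adjusted p = 0.0845) and Mt1 (log2 fold change -0.24, adjusted p = 0.385), and between ZT15 and ZT9 the log2 fold changes were -0.24 for Rgs11, -0.34 for Cldn1 and -0.12 for Mt1. These 3 were not called between ZT15 and ZT9. Neither were Tmem132b (log2 fold change -1.06, adjusted p = 0.405), Rgs9bp (-0.61, 0.295), Trim66 (-0.64, 0.375) and BC037032 (-0.84, 0.266). Whether reads were counted by strand is not stated in the sources used here, and genes that overlap on opposite strands are uncertain to that extent, also where no overlap is given beside them. Such genes include Becn1 (43.9% of its exonic length), Txnip (19.4%), Cryab (17.0%), Lipe (15.6%) and Kcnk3 (5.76%).

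Core clock genes moved in both directions, with 9 of 20 listed genes called, of which 8 are described here. Of 7 activators and their regulators, 3 were higher and 1 was lower at mid dark, of 10 repressors 2 were higher and 2 lower, and of 3 D-box factors 1 was lower. All 9 were called without the libraries with muscle transcripts in the same directions, and 8 of the 9, all but Npas2, were called with the same sign between ZT15 and ZT9. Each of the 9 stayed past the threshold when any 1 mouse was left out.

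Nr1d1, the repressor REV-ERB alpha, showed the largest change of the clock genes. Its level was 190.0, 247, 229.7 and 226 CPM in the 4 mice of ZT6 and 13.5, 28.8, 20.7 and 15.9 CPM in those of ZT18 (log2 fold change -3.50, SE 0.24, adjusted p = 3.65e-10), or 11.3 times as high at mid light as at mid dark by the means, and 8.55% of its exonic length lies opposite Thra. Nr1d2, REV-ERB beta, was at 108, 96.1, 84.5 and 78.3 CPM at ZT6 and 31.2, 56.5, 45.9 and 38.92 CPM at ZT18 (log2 fold change -1.09, SE 0.18, adjusted p = 1.73e-04). Both repressors were lower in every dark-phase mouse. Arntl and Nfil3, known targets of the pair, were higher. Arntl, the core activator BMAL1, stood at 5.25, 4.44, 5.22 and 7.97 CPM in the 4 mice of ZT6 and 17.0, 16.0, 12.0 and 16.3 CPM in those of ZT18 (log2 fold change 1.42, SE 0.25, adjusted p = 3.21e-04), and Nfil3, a D-box repressor, at 3.70, 3.13, 8.47 and 8.69 CPM at ZT6 and 39.9, 25.4, 36.0 and 40.6 CPM at ZT18 (log2 fold change 2.56, SE 0.26, adjusted p = 1.81e-07). No mouse of one time point came near the other in Nfil3, whereas the gap in Arntl was narrower. Npas2, a partner of BMAL1 that REV-ERB alpha is also known to repress, went the other way at a low level, with 1.13, 0.946, 1.51 and 1.34 CPM at ZT6 and 0.386, 0.331, 0.394 and 0.491 CPM at ZT18 (log2 fold change -1.61, SE 0.42, adjusted p = 0.00914), and was not called by the cosine with lane (adjusted p = 0.302).

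The promoters of Arntl and Nfil3 are shown because both genes were higher while the REV-ERB genes were lower. Each window is the 250 bases before the RefSeq start site on GRCm38.p6, 5′ to 3′ on the gene's strand, with capitals for the letters TNGGTCA on either strand, searched as a loose ROR element core. They were held by 9.19% of the 32851 mouse promoters of that table, by 9.77% of the tested genes with a promoter there and by 10.1% of the higher ones. Arntl (chr7:113207215-113207464, plus strand) held 2 such cores and Nfil3 (chr13:52981040-52981289, minus strand) held 1, on the other strand. N stands for any base, T and C in the Arntl matches and A in the Nfil3 match, so a match need not be a ROR element.
Arntl: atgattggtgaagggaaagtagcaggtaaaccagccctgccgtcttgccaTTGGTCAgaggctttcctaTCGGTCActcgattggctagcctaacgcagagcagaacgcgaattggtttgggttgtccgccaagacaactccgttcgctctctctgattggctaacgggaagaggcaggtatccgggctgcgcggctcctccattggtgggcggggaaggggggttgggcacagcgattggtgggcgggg
Nfil3: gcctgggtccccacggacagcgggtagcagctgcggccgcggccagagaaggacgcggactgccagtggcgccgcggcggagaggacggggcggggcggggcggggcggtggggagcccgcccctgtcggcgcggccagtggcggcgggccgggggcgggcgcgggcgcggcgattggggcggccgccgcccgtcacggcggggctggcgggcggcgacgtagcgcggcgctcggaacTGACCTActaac

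The negative limb of the clock was split. Cry1, a repressor of BMAL1 and CLOCK, was measured at 8.24, 10.5, 7.29 and 6.96 CPM in the 4 mice of ZT6 and 37.4, 34.9, 29.1 and 36.7 CPM in those of ZT18 (log2 fold change 2.06, SE 0.15, adjusted p = 1.004e-09), and Per2, its partner, at 13.8, 14.7, 13.7 and 14.2 CPM at ZT6 and 66.0, 55.5, 39.6 and 47.6 CPM at ZT18 (log2 fold change 1.89, SE 0.23, adjusted p = 3.65e-06). Every dark-phase mouse had more of both than any light-phase mouse. Dbp, an activator at D-boxes, was at 104, 111, 67.8 and 47.5 CPM at ZT6 and 9.70, 11.5, 12.7 and 9.17 CPM at ZT18 (log2 fold change -2.94, SE 0.25, adjusted p = 8.11e-09), 7.66 times as high at mid light by the means, and 18.0% of its exonic length lies opposite Sphk2. The levels of Dbp in the light varied more between mice than those in the dark. Among the members that did not pass, log2 fold changes were 0.12 for Per1 (adjusted p = 0.820), 0.26 for Per3 (0.360), 0.33 for Cry2 (0.0868), 0.016 for Clock (0.931), -0.72 for Bhlhe41 (0.127), -0.53 for Ciart (0.212), -0.27 for Tef (0.291) and -0.42 for Hlf (0.0631). Hlf nevertheless was lower in all 4 dark-phase mice (49.1, 38.5, 50.03 and 43.6 CPM at ZT6 and 30.0, 34.9, 38.2 and 32.7 CPM at ZT18). Samples 12 h apart can miss a rhythm: Per3 averaged 78.4 CPM at ZT6 and 94.2 CPM at ZT18 but 213 CPM at ZT12 and 32.2 CPM at ZT0.

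The Cry1 promoter is shown for its E-box, CACGTG, in capitals, a motif held by 6.02% of the promoters and by 9.65% of the tested genes with a promoter in the table. It spans chr10:85185055-85185304 on the minus strand.
Cry1: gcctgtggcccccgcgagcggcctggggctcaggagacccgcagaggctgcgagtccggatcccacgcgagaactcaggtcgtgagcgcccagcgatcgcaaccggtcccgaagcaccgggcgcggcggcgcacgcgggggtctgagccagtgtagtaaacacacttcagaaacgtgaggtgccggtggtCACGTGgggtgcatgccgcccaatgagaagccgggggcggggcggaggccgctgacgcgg
The 250 bases before the start sites of Nr1d1, Nr1d2, Dbp and Npas2 held none of the E-box, the ROR core, the D-box TTATGNAA, the cAMP response element TGACGTCA or the heat-shock element core GAANNTTC. Per2 was not analysed here for motifs. Members that did not pass held such motifs too: among the 5 such repressors with a promoter entry, 3 held an E-box and 2 a ROR core, and of 2 D-box factors 1 held both. A match is a description of letters, and no match says only that they are not in this window.

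**Figure D2:**
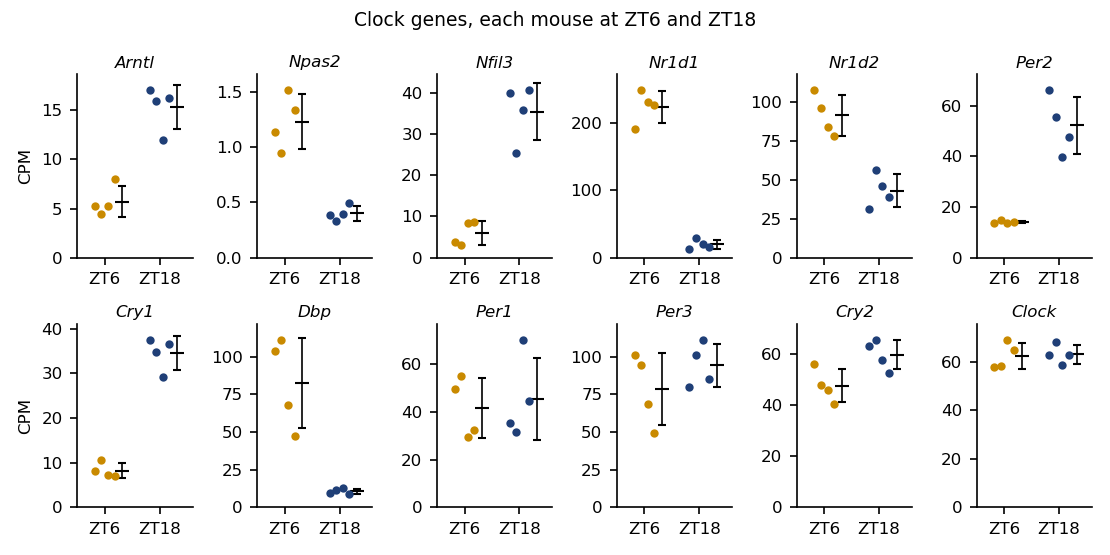
Levels of 12 clock genes in CPM (vertical axes from 0), with 1 point per mouse at ZT6 and ZT18 and a dash and bar for the mean ± SD of 4 mice. Arntl, Nfil3, Per2 and Cry1 lie higher at ZT18, Nr1d1, Nr1d2, Dbp and Npas2 lower, and Per1, Per3, Cry2 and Clock did not pass the test.

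Most heat-shock genes were higher at mid dark. Their products fold other proteins or keep them from clumping, and HSF1 is the factor that switches many of them on. Of 20 tested members, 14 were higher, none was lower and 6 did not pass, with a median log2 fold change of 0.73 against 0.00 over all tested genes, and 13 members did not overlap between the groups. Of all tested genes 8.18% were higher and 22.9% did not overlap. Between ZT15 and ZT9, 13 of the 14 were called with the same sign, as were all 14 by the cosine with lane, and 11 members were higher without the libraries with muscle transcripts.

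Hspa8, the constitutive HSP70, was measured at 151, 194, 174 and 194 CPM in the 4 mice of ZT6 and 948, 876, 615 and 773 CPM in those of ZT18 (log2 fold change 2.17, SE 0.19, adjusted p = 1.90e-08), 4.51 times as high at mid dark by the means. Hsph1, a nucleotide exchange factor for HSP70, stood at 26.4, 19.0, 19.3 and 16.5 CPM at ZT6 and 129, 101, 56.9 and 100.0 CPM at ZT18 (log2 fold change 2.25, SE 0.34, adjusted p = 5.03e-05). In both genes the lowest dark-phase mouse lay well above the highest light-phase mouse. The inducible Hspa1b was at 0.597, 1.36, 1.07 and 1.06 CPM at ZT6 and 4.02, 4.03, 2.48 and 6.22 CPM at ZT18 (log2 fold change 2.03, SE 0.51, adjusted p = 0.00752), and its near-identical neighbour Hspa1a had a log2 fold change of 2.00 (adjusted p = 0.00835, and 0.0565 without the libraries with muscle transcripts), so that reads of the pair are uncertain between them. Co-chaperones that rose were Dnaja1 (log2 fold change 1.43, SE 0.17, adjusted p = 2.41e-06, with 7.05% of its exonic length opposite Smu1), Chordc1 (log2 fold change 1.34), Dnajb1 (1.04), Stip1 (0.88), Ahsa1 (0.73) and Fkbp4 (0.48), together with the small heat-shock genes Hspb8 (0.90) and Hspb1 (0.72, adjusted p = 0.0394) and with Dnajb4 (0.56). The call of Hspb8 was kept in 3 of the 8 fits that left out a mouse (adjusted p = 0.0622 without the libraries with muscle transcripts). That of Hspb1 was kept in 2 and was lost without the libraries with muscle transcripts (adjusted p = 0.197), but the cosine with lane called it as well (log2 fold change 2.16, adjusted p = 9.15e-06). Hsf1 itself was at 22.1, 20.8, 21.3 and 20.3 CPM at ZT6 and 33.0, 29.4, 28.4 and 30.2 CPM at ZT18 (log2 fold change 0.52, SE 0.076, adjusted p = 3.64e-05), a smaller change without overlap. Hsp90aa1, the inducible HSP90, did not pass (log2 fold change 0.67, adjusted p = 0.0810), and 1 light-phase mouse, at 101 CPM, stood apart from its group. Nor did Hsp90ab1 (log2 fold change 0.30), the co-chaperone Bag3 (0.052), the small chaperone Cryab (-0.032) or the mitochondrial chaperonins Hspd1 (-0.016) and Hspe1 (0.21).

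The promoters of 3 members are printed for the heat-shock element core GAANNTTC, in capitals, a palindrome held by 6.69% of the promoters. Of the 14 higher members, 12 had a promoter in the table and 5 of these held the core, as did 2 of the 3 with a promoter among the members that did not pass. Hspa1b spans chr17:34959239-34959488 (minus strand), Dnaja1 chr4:40722218-40722467 (plus, the first of its 3 start sites in the table, of which the other two held no core) and Hspb1, with 2 cores, chr5:135887669-135887918 (plus).
Hspa1b: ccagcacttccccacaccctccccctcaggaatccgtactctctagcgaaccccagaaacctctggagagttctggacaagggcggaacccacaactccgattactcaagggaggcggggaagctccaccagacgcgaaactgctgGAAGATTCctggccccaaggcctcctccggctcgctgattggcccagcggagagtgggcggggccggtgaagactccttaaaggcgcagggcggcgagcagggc
Dnaja1: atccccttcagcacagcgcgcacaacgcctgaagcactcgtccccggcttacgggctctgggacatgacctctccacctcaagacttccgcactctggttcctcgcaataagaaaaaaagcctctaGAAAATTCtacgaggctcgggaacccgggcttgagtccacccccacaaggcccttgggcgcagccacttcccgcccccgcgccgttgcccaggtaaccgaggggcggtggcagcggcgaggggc
Hspb1: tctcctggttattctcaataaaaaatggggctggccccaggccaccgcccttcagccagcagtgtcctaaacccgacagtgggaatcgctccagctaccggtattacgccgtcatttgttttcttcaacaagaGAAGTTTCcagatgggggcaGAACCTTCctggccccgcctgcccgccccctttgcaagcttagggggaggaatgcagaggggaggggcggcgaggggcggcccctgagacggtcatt

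The pair of cold-inducible RNA-binding genes, whose products bind messenger RNA and are known to rise at low temperature, split. Cirbp was at 32.7, 29.3, 32.5 and 37.0 CPM at ZT6 and 13.1, 14.2, 22.1 and 16.8 CPM at ZT18 (log2 fold change -0.99, SE 0.18, adjusted p = 3.31e-04), lower in every dark-phase mouse. Rbm3 was at 30.8, 29.3, 28.9 and 32.1 CPM at ZT6 and 38.7, 42.5, 40.01 and 33.8 CPM at ZT18 (log2 fold change 0.36, SE 0.12, adjusted p = 0.0487) and stayed past the threshold in only 1 of the 8 fits that left out a mouse and not without the libraries with muscle transcripts (adjusted p = 0.115).

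**Figure D3:**
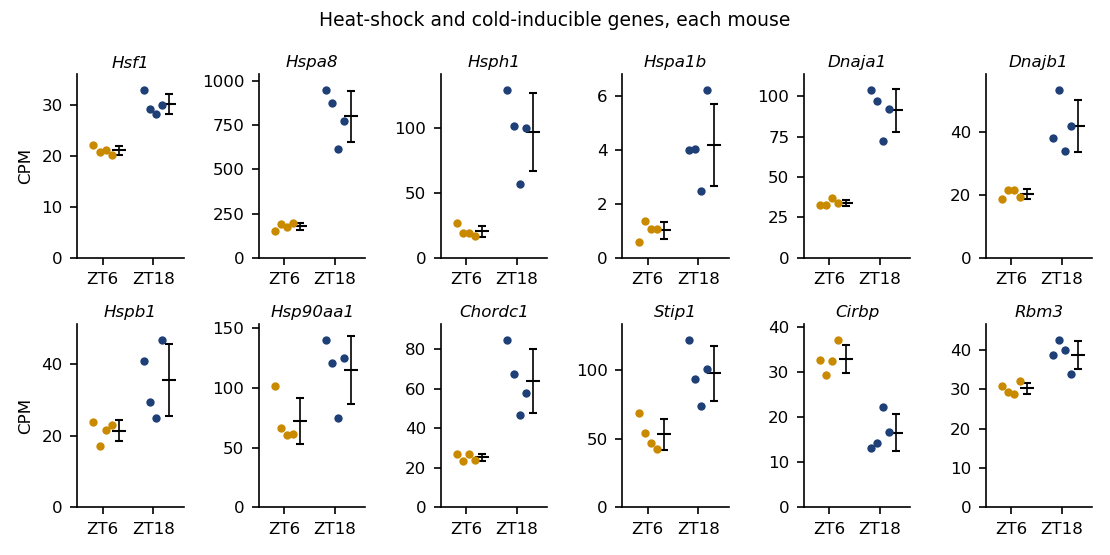
Levels of 10 heat-shock and co-chaperone genes and of the cold-inducible Cirbp and Rbm3 in CPM (vertical axes from 0), 1 point per mouse, with the mean ± SD of 4 mice. Hspa8, Hsph1 and Hspa1b separate the time points most widely, Hsp90aa1 overlaps, and Cirbp alone lies lower at ZT18.

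Genes that make cholesterol and fatty acids under the control of SREBP factors were higher at mid dark in part, with no listed member called lower. In the cholesterol list 9 of 22 members rose and 13 did not pass (median log2 fold change 0.56), and in the list of de novo lipogenesis 5 of 17 rose and 12 did not (median 0.49). Without the libraries with muscle transcripts, 8 and 6 members were higher. Between ZT15 and ZT9 only 1 and 2 of the risen members were called with the same sign, while the cosine with lane called 7 and 5. Insig1, which holds back SREBP processing and counts in both lists, was at 350.2, 331, 231 and 138 CPM at ZT6 and 741, 1004, 640.2 and 585 CPM at ZT18 (log2 fold change 1.4996, SE 0.32, adjusted p = 0.00186). It was higher in all dark-phase mice. The enzymes Mvd (log2 fold change 1.651), Sqle (1.20), Cyp51 (1.13) and Msmo1 (1.00) rose, the sterol carrier Stard4 (0.60) rose less, and Hmgcs1 (0.016), Dhcr7 (-0.21) and the factor Srebf2 (0.11) did not pass. Fdft1, squalene synthase, had a log2 fold change of 0.56, but 18.3% of its exonic length lies opposite Ctsb. Of the 8 fits that left out a mouse, the calls were kept for Sqle in 3 (adjusted p up to 0.143, without ZT18 replicate 1) and Fdft1 in 3 (adjusted p up to 0.123, without ZT6 replicate 4). With lane the cosine fell short for Sqle (log2 fold change 1.32, adjusted p = 0.0592) and Stard4 (log2 fold change 0.51, adjusted p = 0.126).

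Regulators were among the members of the lipogenesis list that rose. Mid1ip1, an activator of acetyl-CoA carboxylase, rose (52.7, 55.2, 44.0 and 27.8 CPM at ZT6 and 155, 156, 119 and 94.9 CPM at ZT18, log2 fold change 1.55, SE 0.32, adjusted p = 0.00137), and Pnpla3, a lipid droplet protein switched on by SREBP-1c, was at 600.3, 546, 617 and 254 CPM at ZT6 and 1546, 1476, 1095 and 949.8 CPM at ZT18 (log2 fold change 1.33, SE 0.30, adjusted p = 0.00311). The mice did not overlap in either gene. Srebf1 itself had a log2 fold change of 0.70 (adjusted p = 0.0329), a call kept in 4 of the 8 fits that left out a mouse. Fasn, fatty acid synthase, was at 35049.7, 32249, 21189.8 and 6034 CPM at ZT6 and 29663, 29550.0, 22031 and 19903 CPM at ZT18 (log2 fold change 0.098, SE 0.48, adjusted p = 0.916), Acly, ATP citrate lyase, at 6849, 6024, 2867 and 933 CPM at ZT6 and 7308, 7676, 4567 and 3794 CPM at ZT18 (log2 fold change 0.49, SE 0.50, adjusted p = 0.557). Replicate 4 of ZT6 was the lowest of the 8 mice in Fasn, Acly, Me1, Acaca, Scd1 and Scd2, and the groups overlapped in all of these. Without that mouse the log2 fold change was -0.22 for Fasn and 0.15 for Acly, and neither passed. Among 17 genes of fatty acid elongation and desaturation only Elovl5, which lengthens polyunsaturated fatty acids, was called (164, 169, 103 and 83.8 CPM at ZT6 and 277, 229.9, 161 and 243 CPM at ZT18, log2 fold change 0.81, SE 0.28, adjusted p = 0.0484), while Elovl3 (log2 fold change 0.26, adjusted p = 0.884) and Elovl6 (log2 fold change 0.15, adjusted p = 0.848) were not. The groups overlapped in Elovl5, its call was kept in 3 of the 8 fits that left out a mouse, and with lane in the cosine fit its log2 fold change was 0.31 (adjusted p = 0.556).

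Of the called genes of triglyceride assembly more were lower than higher, and the inhibitor of lipolysis G0s2 went up. In the list of triglyceride synthesis and lipid droplets 5 of 24 members were lower and 2 higher (median log2 fold change -0.10), the same counts as without the libraries with muscle transcripts. All tested genes had 8.68% lower and 8.18% higher, the latter near the 2 of 24. Gpat4 and Gpam, which catalyse the first step of glycerolipid synthesis, were lower, Gpat4 at 405, 383, 442 and 485 CPM at ZT6 and 135, 158, 204 and 215 CPM at ZT18 (log2 fold change -1.27, SE 0.17, adjusted p = 9.99e-06) and Gpam with a log2 fold change of -0.56 (adjusted p = 0.0468). All 4 dark-phase mice lay below the light-phase mice in Gpat4. Agpat3 (log2 fold change -0.39) and Lpin3 (-0.52), further enzymes of the path, fell, and their relatives Lpin1 (0.54) and Lpin2 (0.36) rose. Cideb, a lipid droplet protein, had a log2 fold change of -1.16, but 76.3% of its exonic length lies opposite Nop9 and the value is uncertain. Leaving out 1 mouse at a time kept the calls of Gpam in 1 (adjusted p up to 0.114, without ZT6 replicate 1), Lpin3 in 4 (adjusted p up to 0.0849, without ZT18 replicate 1), Lpin1 in 4 (adjusted p up to 0.152, without ZT6 replicate 4) and Lpin2 in 7 (adjusted p up to 0.0652, without ZT18 replicate 2) of the 8 fits, the groups overlapped in Lpin1, and Gpam and Lpin3 were not called without the libraries with muscle transcripts (adjusted p = 0.166 and 0.214). The cosine with lane did not call Lpin2 (log2 fold change 0.26, adjusted p = 0.140), Lpin3 (log2 fold change -0.49, adjusted p = 0.157) and Cideb (log2 fold change -0.79, adjusted p = 0.0789). Dgat1 (log2 fold change -0.10), Dgat2 (-0.16) and the droplet coat Plin1 (-0.14) did not pass.

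Among 12 lipolysis genes 3 were higher and 2 lower, and 2 and 3 without the libraries with muscle transcripts. G0s2, which inhibits adipose triglyceride lipase, was measured at 94.4, 109, 111 and 99.5 CPM in the 4 mice of ZT6 and 415, 456, 331 and 362 CPM in those of ZT18 (log2 fold change 1.91, SE 0.34, adjusted p = 3.07e-04), 3.77 times as high at mid dark. The spread within each group was small beside that difference. The carboxylesterases Ces1d (log2 fold change 0.57, adjusted p = 1.03e-05) and Ces1f (0.49), which are close paralogs, rose as well, but Ces1f was not called by the cosine with lane (adjusted p = 0.589) or without the libraries with muscle transcripts (adjusted p = 0.106). Aqp7, the channel through which glycerol leaves, stood at 179, 177, 169.6 and 213 CPM at ZT6 and 82.3, 86.5, 99.9 and 95.8 CPM at ZT18 (log2 fold change -1.02, SE 0.11, adjusted p = 6.76e-07), and Lipa, the lysosomal acid lipase, had a log2 fold change of -0.61 (adjusted p = 6.64e-04). The lipases Pnpla2 (log2 fold change 0.12, adjusted p = 0.158) and Lipe (log2 fold change -0.24, adjusted p = 0.201), which act on the droplet, did not pass, and neither did the glycerol kinase Gk (log2 fold change -1.21, adjusted p = 0.0572).

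Uptake of fatty acids from lipoproteins depends on lipoprotein lipase (LPL), its anchor GPIHBP1 and the ANGPTL proteins that inhibit it. Of 16 such genes 2 were higher and 1 lower (median -0.08), the same counts as without the libraries with muscle transcripts and a share near the 16.9% of all tested genes that were called. Between ZT15 and ZT9, 1 of these calls was called with the same sign. Angptl8, a feeding-induced partner of the other ANGPTL proteins, was at 23.5, 20.9, 19.5 and 14.0 CPM at ZT6 and 91.0, 86.2, 38.8 and 30.1 CPM at ZT18 (log2 fold change 1.66, SE 0.47, adjusted p = 0.0146), and Lrp1, a receptor for remnant particles, was at 300.2, 313, 282 and 285 CPM at ZT6 and 154, 151, 183 and 215 CPM at ZT18 (log2 fold change -0.75, SE 0.17, adjusted p = 0.00275). When each mouse was left out in turn, the call was kept for Angptl8 in 6 (adjusted p up to 0.0587, without ZT18 replicate 1) of the 8 fits. Lpl was at 2615, 2779, 3090.0 and 3622 CPM at ZT6 and 2755, 3379, 3396 and 3831 CPM at ZT18 (log2 fold change 0.14, SE 0.12, adjusted p = 0.462), Angptl4 at 261, 388, 362 and 492 CPM at ZT6 and 118, 165, 287 and 422 CPM at ZT18 (log2 fold change -0.60, SE 0.44, adjusted p = 0.381), Gpihbp1 had a log2 fold change of -0.10 (adjusted p = 0.586) and Cd36, the fatty acid translocase, one of -0.12 (0.221). None of these 4 passed.

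Calls among genes of fatty acid oxidation and of heat production went one way, down at mid dark, although most members of both lists did not pass. Of 26 oxidation genes 6 were lower and none higher (median -0.043), and of 22 genes of thermogenesis and beta-adrenergic signalling 6 were lower and none higher (median -0.30). These are 23.1% and 27.3% lower, against 8.68% lower and 8.18% higher over all tested genes. Without the libraries with muscle transcripts 5 and 5 were lower. Between ZT15 and ZT9, 5 of the oxidation calls and 2 of the thermogenesis calls were called with the same sign. Slc27a2, which activates and carries very long-chain fatty acids, was at 194, 178, 210.0 and 272 CPM at ZT6 and 34.6, 37.9, 59.8 and 72.9 CPM at ZT18 (log2 fold change -2.06, SE 0.25, adjusted p = 2.53e-06), with 11.2% of its exonic length opposite a predicted gene. Slc27a1, a transporter of the same family, was at 197, 289, 227 and 295 CPM at ZT6 and 144, 137, 149 and 142 CPM at ZT18 (log2 fold change -0.82, SE 0.13, adjusted p = 1.38e-04), Ppara, the nuclear receptor that drives oxidation genes, at 151, 149, 165 and 153 CPM at ZT6 and 50.8, 56.8, 81.5 and 91.2 CPM at ZT18 (log2 fold change -1.14, SE 0.35, adjusted p = 0.0239). None of these 3 genes overlapped between the groups. Cpt1a, the liver form of the enzyme that admits fatty acids to mitochondria (log2 fold change -0.64), and Acsl1, an acyl-CoA synthetase (-0.54), fell too, and Ehhadh (-1.47, adjusted p = 0.0381) was kept in only 1 of the 8 fits without a mouse, and not without the libraries with muscle transcripts (adjusted p = 0.104). In the same fits the calls were kept for Ppara in 6 (adjusted p up to 0.0815, without ZT18 replicate 1) and Acsl1 in 5 (adjusted p up to 0.0762, without ZT18 replicate 1). The muscle form Cpt1b, the main one of brown fat, had a log2 fold change of 0.10 (adjusted p = 0.688).

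Ucp1 was measured at 2128, 1701, 2706 and 3622 CPM in the 4 mice of ZT6 and 955, 1286, 1733 and 1126 CPM in those of ZT18 (log2 fold change -0.99, SE 0.29, adjusted p = 0.0171), where the lowest light-phase mouse lay just below the highest dark-phase mouse. The call was kept in 6 of the 8 fits that left out a mouse, and without the libraries with muscle transcripts it had a log2 fold change of -1.33 (adjusted p = 0.0239). Ucp1 was not called by the cosine with lane (log2 fold change -0.83, adjusted p = 0.102) or between ZT15 and ZT9 (-0.75, 0.104). The adrenergic receptors Adrb1 (log2 fold change 0.46, adjusted p = 0.269) and Adrb3 (0.16, 0.744, with 24.9% of its exonic length opposite a predicted gene) did not pass. Downstream of the receptors, Adcy3 (log2 fold change -0.70), an adenylyl cyclase, and the protein kinase A subunits Prkar2b (-0.47) and Prkaca (-0.34) fell, and so did the potassium channel Kcnk3 (-0.55). With 1 mouse left out the call was kept for Prkar2b in 7 (adjusted p up to 0.0544, without ZT18 replicate 1) and Adcy3 in 1 (adjusted p up to 0.0978, without ZT6 replicate 3) of the 8 fits, and Adcy3 was not called without the libraries with muscle transcripts (adjusted p = 0.0863). Dio2, which activates thyroid hormone and responds to noradrenaline, ranged widely, at 14.5, 17.9, 34.1 and 42.5 CPM at ZT6 and 7.49, 30.7, 108 and 96.9 CPM at ZT18 (log2 fold change 1.15, SE 0.67, adjusted p = 0.252). Its 2 highest mice were the dark-phase mice with muscle transcripts, and without the libraries with muscle transcripts the log2 fold change was -0.67 (adjusted p = 0.673). The coactivator Ppargc1a (log2 fold change -0.55, adjusted p = 0.163) and the droplet protein Cidea (log2 fold change 0.013, adjusted p = 0.945) did not pass.

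**Figure D4:**
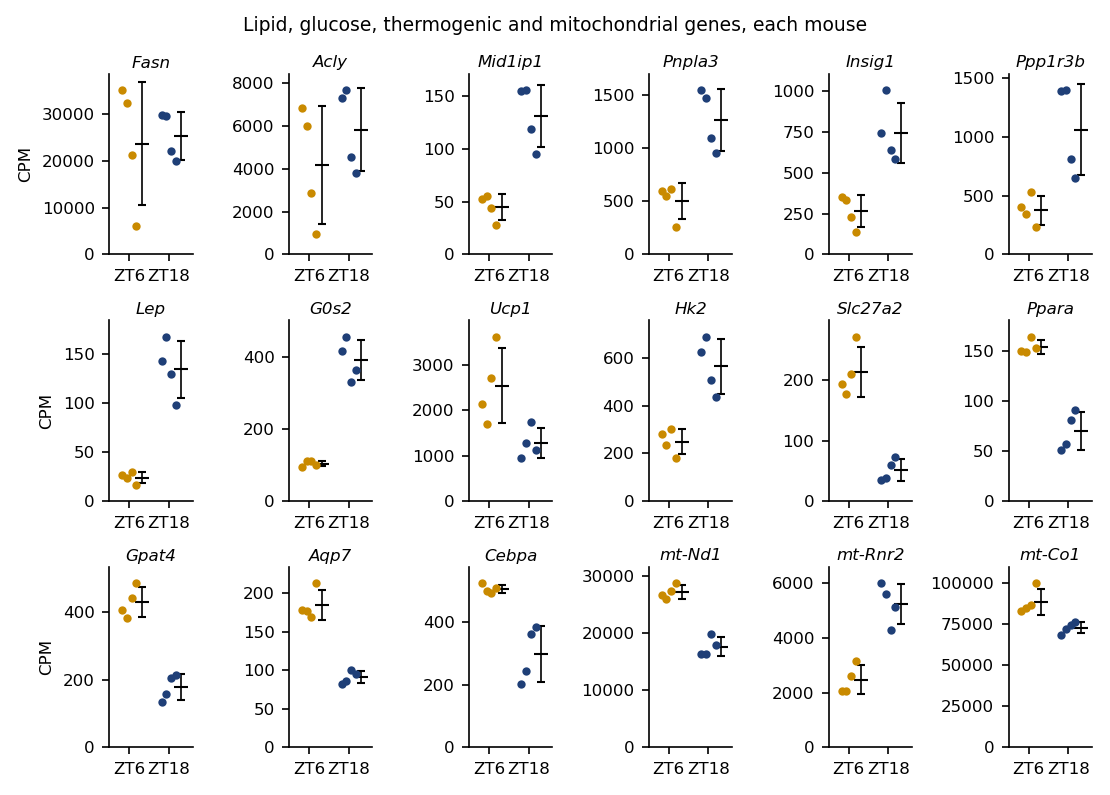
Levels of 18 genes of lipid and glucose handling, heat production and the mitochondrial genome in CPM (vertical axes from 0), 1 point per mouse, with the mean ± SD of 4 mice. Mid1ip1, Insig1, Ppp1r3b, Hk2, Lep and G0s2 lie higher at ZT18, Slc27a2, Gpat4 and Aqp7 lower, and Fasn and Acly overlap with 1 low mouse at ZT6.

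Genes that respond to fasting and insulin were lower more often than higher. Of 18 members 5 were lower and 2 higher, with a median log2 fold change of -0.37, and 7 and 2 without the libraries with muscle transcripts. Across all tested genes 8.68% were lower and 8.18% higher, the latter not far from the 2 of 18. Trib3, which inhibits AKT, was at 11.2, 10.8, 14.0 and 10.6 CPM at ZT6 and 4.57, 3.86, 4.34 and 4.42 CPM at ZT18 (log2 fold change -1.43, SE 0.21, adjusted p = 3.66e-05), and Klf15, a factor induced by fasting and glucocorticoids, at 29.6, 27.0, 41.1 and 40.8 CPM at ZT6 and 11.8, 12.7, 15.6 and 21.5 CPM at ZT18 (log2 fold change -1.17, SE 0.23, adjusted p = 8.29e-04). The groups did not overlap in either gene. The factor Foxo1 had a log2 fold change of -0.39, a call kept in 3 of the 8 fits without a mouse. Nampt, the rate-limiting enzyme of NAD salvage, rose from 265 to 344 CPM to 610.0 to 725 CPM (log2 fold change 1.06, SE 0.13, adjusted p = 1.92e-06). Irs2, which carries the insulin signal and is repressed by insulin, was split within the dark group, at 38.92, 30.5, 29.9 and 32.0 CPM at ZT6 and 8.65, 16.0, 108 and 108 CPM at ZT18 (log2 fold change 0.88, SE 0.67, adjusted p = 0.404), and the 2 high mice were the dark-phase mice with muscle transcripts. Without the libraries with muscle transcripts Irs2 had a log2 fold change of -1.45 (adjusted p = 0.266). Pck1 (log2 fold change -0.38, adjusted p = 0.464), Pdk4 (log2 fold change -0.73, adjusted p = 0.148) and Txnip (log2 fold change -0.29, adjusted p = 0.557) did not pass.

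In the glucose list 2 of 25 genes were higher and 2 lower (3 and 2 without the libraries with muscle transcripts), shares close to the 8.18% and 8.68% of all tested genes. The higher ones were Hk2 (279.6, 233, 302 and 181 CPM at ZT6 and 625, 689.9, 506 and 438 CPM at ZT18, log2 fold change 1.18, SE 0.31, adjusted p = 0.00977), the insulin-induced hexokinase, and Slc2a4 (log2 fold change 0.61, SE 0.19, adjusted p = 0.0288), the insulin-regulated transporter GLUT4, while Hk1 (-0.50) and Pfkfb3 (-0.97), a regulator of glycolysis, were lower. Over the 8 fits that left out a mouse, calls were kept for Slc2a4 in 4 (adjusted p up to 0.117, without ZT18 replicate 1) and Hk1 in 5 (adjusted p up to 0.0739, without ZT6 replicate 3), and the groups overlapped in both. Hk1 and Pfkfb3 were not called by the cosine with lane (adjusted p = 0.106 and 0.0902), nor Pfkfb3 without the libraries with muscle transcripts (adjusted p = 0.0553). Targets of the glucocorticoid receptor were split, 4 of 16 higher and 3 lower, and 3 and 2 without those libraries. Tsc22d3, which encodes GILZ, was at 28.1, 29.3, 34.9 and 31.1 CPM at ZT6 and 69.98, 62.3, 64.9 and 69.9 CPM at ZT18 (log2 fold change 1.11, SE 0.17, adjusted p = 7.09e-05), Fkbp5, a chaperone of the receptor, had a log2 fold change of 1.18 (adjusted p = 0.0276), Pik3r1, a subunit of the insulin-activated lipid kinase, one of 1.40 (0.0415), and the receptor gene Nr3c1 one of 0.37. The groups overlapped in Fkbp5. Calls were kept for Fkbp5 in 3 (adjusted p up to 0.0874, without ZT18 replicate 4), Pik3r1 in 3 (adjusted p up to 0.380, without ZT18 replicate 1) and Klf9 in 0 (adjusted p up to 0.119, without ZT18 replicate 4) of the 8 fits, Pik3r1 was not called by the cosine with lane (adjusted p = 0.406), and Klf9 was not called without the libraries with muscle transcripts (adjusted p = 0.317). Nr3c1 was not called without the libraries with muscle transcripts (log2 fold change 0.21, adjusted p = 0.185) or by the cosine with lane (0.11, 0.580). The lower members were Mt1, Mt2 and Klf9 (log2 fold change -0.32), of which the metallothioneins also respond to metals. Per1 and Sgk1 (log2 fold change -0.0047, adjusted p = 0.993), also known targets, did not pass.

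Transcription factors of fat were called in both directions. Of 22 factors tied to brown adipocytes 3 rose and 3 fell, and 2 and 3 without the libraries with muscle transcripts. The shares over all tested genes were 8.18% higher and 8.68% lower. Cebpa, a factor of adipocyte identity, was at 523, 497, 492 and 508 CPM at ZT6 and 203, 242, 362 and 383 CPM at ZT18 (log2 fold change -0.76, SE 0.15, adjusted p = 8.85e-04). Nrf1, which drives nuclear genes for mitochondria, was at 10.2, 10.5, 11.2 and 12.0 CPM at ZT6 and 16.9, 16.3, 14.5 and 13.3 CPM at ZT18 (log2 fold change 0.48, SE 0.087, adjusted p = 4.48e-04), and Gabpa, with a like role, had a log2 fold change of 0.38, a call kept in 4 of the 8 fits without a mouse and not made by the cosine with lane (adjusted p = 0.754). Esrrb, an orphan receptor at a low level, was at 0.597, 0.237, 0.953 and 0.501 CPM at ZT6 and 2.31, 1.93, 1.63 and 1.75 CPM at ZT18 (log2 fold change 1.72, SE 0.42, adjusted p = 0.00561), and Pparg did not pass (log2 fold change -0.033, adjusted p = 0.920). Of 22 immediate early genes 4 were higher, Jun (log2 fold change 1.62, SE 0.42, adjusted p = 0.00953, with 7.28% of its exonic length opposite Junos), Atf3 (1.63), Fosl2 (1.32) and Jund (0.60), and Klf4 (-0.95) was lower. Without the libraries with muscle transcripts only 1, Fosl2, was higher (log2 fold change 0.97, adjusted p = 0.0412), and 1 of the calls was called with the same sign between ZT15 and ZT9. The cosine with lane did not call Jun, Atf3, Jund or Klf4 (adjusted p = 0.112, 0.432, 0.791 and 0.0874), and with 1 mouse left out calls were kept for Atf3 in 7 (adjusted p up to 0.0634, without ZT18 replicate 3), Jund in 1 (adjusted p up to 0.212, without ZT18 replicate 3) and Klf4 in 4 (adjusted p up to 0.167, without ZT6 replicate 1) of the 8 fits. Fos (0.776, 14.7, 0.505 and 1.67 CPM at ZT6 and 1.32, 3.81, 3.04 and 2.35 CPM at ZT18) and Egr1 (11.8, 143, 8.69 and 23.6 CPM at ZT6 and 19.6, 83.1, 93.8 and 53.3 CPM at ZT18) did not pass (adjusted p = 0.701 and 0.834), and both were highest among light-phase mice in the mouse with muscle transcripts. Besides Lep, the secreted factors Slit2 (log2 fold change -1.13) and Angptl2 (-0.48) were called, both lower (the list had 2 higher and 0 lower members without the libraries with muscle transcripts), while Adipoq (0.046) and Retn (0.55) were not. With 1 higher and 2 lower of 18, the share called in this list (16.7%) was near the 16.9% of all tested genes. Slit2 was kept in 5 of the 8 fits without a mouse and was not called by the cosine with lane (adjusted p = 0.0911).

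Transcripts of the mitochondrial genome took a smaller share of the counts at mid dark, 19.6% ± 1.18 (SD, n = 4) against 24.3% ± 2.52 at mid light, a difference of -4.75 percentage points (exact permutation test, two-sided, p = 0.0286, the smallest that 4 against 4 mice allow). No dark-phase mouse reached the level of a light-phase mouse. On the lane shared by ZT9 and ZT15 the shares overlapped, at 21.8% to 28.2% for ZT9 and 22.8% to 26.7% for ZT15. At ZT21, on the lane of ZT18, they were 21.2% to 24.0%, each above those of ZT18. Without ribosomal RNA the difference was -5.09 points, and without the 3 libraries with muscle transcripts -6.37 points, where 2 against 3 mice allow no exact permutation p below 0.1. The genes with the largest falls in CPM were mitochondrial, since mt-Nd1 was at 26695, 25981, 27341 and 28783 CPM at ZT6 and 16336, 16369, 19819 and 17978 CPM at ZT18 (log2 fold change -0.63, SE 0.08, adjusted p = 6.92e-06), and log2 fold changes were -0.48 for mt-Nd2, -0.39 for mt-Nd5, -0.34 for mt-Cytb and -0.29 for mt-Nd4. The gene mt-Co1, at 82987, 84443, 86645 and 99811 CPM at ZT6 and 68612, 71815, 74422 and 76256 CPM at ZT18 (log2 fold change -0.28, SE 0.097, adjusted p = 0.0455), was kept in 1 of the 8 fits without a mouse, mt-Nd5 in 3 and mt-Nd4 in 7. Of the 13 protein genes 5 were called higher and 6 lower, and 5 and 4 without the libraries with muscle transcripts, but the cosine with lane called only mt-Nd1 (log2 fold change -0.57) and mt-Nd5 (-0.74) with the same sign, as did ZT15 against ZT9. With lane in the fit the log2 fold change was -0.29 for mt-Nd2 (adjusted p = 0.109), -0.19 for mt-Cytb (0.201), -0.15 for mt-Co1 (0.399) and -0.014 for mt-Nd4 (0.938). Both ribosomal RNAs went the other way, mt-Rnr2 at 2073, 2042, 2622 and 3155 CPM at ZT6 and 5999, 5593, 4292 and 5119 CPM at ZT18 (log2 fold change 1.09, SE 0.17, adjusted p = 1.06e-04) and mt-Rnr1 with a log2 fold change of 0.74 (adjusted p = 0.00132). Together with transfer RNA genes, 4 of 11 such genes were higher and none lower, and 2 without the libraries with muscle transcripts. Whether poly(A) RNA was selected or ribosomal RNA removed is not stated in the sources used here, and either step can change how much of such RNA a library keeps. The genes mt-Co2 (log2 fold change 1.05), mt-Co3 (0.97), mt-Atp6 (1.35), mt-Nd3 (0.88) and mt-Nd4l (1.16) were called higher. They held only 2.60 to 3.23 CPM in mt-Nd4l and 38.6 to 62.2 CPM in mt-Co2 at ZT6, and since the mouse nuclear genome carries a near-identical copy of this stretch their values are uncertain.

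Calls among nuclear genes of the respiratory chain, ribosomes, the spliceosome and the proteasome were nearly all higher at mid dark, and small. Among complex I subunits 3 of 39 were higher (median log2 fold change 0.14), among those of complexes II to V 5 of 46 (median 0.12) and among mitochondrial ribosomal proteins 6 of 77 (median 0.12), and none was lower. Without the libraries with muscle transcripts 0, 3 and 0 members of these lists were higher, none of the calls was called between ZT15 and ZT9, and the cosine with lane called 0, 1 and 0 of them. These shares lie near the 8.18% of all genes that were higher. Cytosolic ribosomal proteins had 21 of 81 members higher, none lower and a median of 0.19, with 12 higher without the libraries with muscle transcripts and 0 called with the same sign between ZT15 and ZT9. Rps12 (log2 fold change 0.54, adjusted p = 0.00106), Rpl13 (log2 fold change 0.77, adjusted p = 0.00153) and Rpl10a (log2 fold change 0.70, adjusted p = 0.00236) are examples, and as these genes have many processed pseudogenes the counts of single members are uncertain. RNA splicing factors had 18 of 78 higher and 1 lower (median 0.077), 11 and 1 without those libraries. Ddx5, an RNA helicase, was at 474, 435, 486 and 478 CPM at ZT6 and 661, 652, 660.4 and 641 CPM at ZT18 (log2 fold change 0.48, SE 0.062, adjusted p = 6.28e-06), Sf3b2, a part of the U2 particle, had a log2 fold change of 0.32 and Clk2, a kinase of splicing factors, one of 0.35. All 3 are changes of less than 1.5-fold. Of the proteasome 4 of 37 subunits were higher, as many as without those libraries and again a share near 8.18%, with a median of 0.031, among them Psmc6 (log2 fold change 0.40) and Psmd12 (0.36), the latter kept in 5 of the 8 fits without a mouse.

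Collagens were lower in 6 and higher in 2 of 32 members (median -0.38), and 3 and 0 without the libraries with muscle transcripts. With all 8 mice 8.68% of all tested genes were lower and 8.18% higher, the latter near the 2 of 32. Col4a1 and Col4a2, the chains of basement membrane, are neighbours and fell alike, Col4a1 at 497, 511, 475 and 567 CPM at ZT6 and 360.2, 376, 365 and 398 CPM at ZT18 (log2 fold change -0.45, SE 0.083, adjusted p = 4.85e-04) and Col4a2 with a log2 fold change of -0.45 (adjusted p = 7.73e-04), and Col5a3 had one of -0.83. Fibrillar Col1a1 (log2 fold change -0.52, adjusted p = 0.292) and Col3a1 (log2 fold change -0.38, adjusted p = 0.311) did not pass, and of the 7 pericyte and smooth muscle markers, whose sum did not overlap as given above, 1 was called, lower. In the cell cycle list 3 of 24 genes were lower (2 without the libraries with muscle transcripts) and 1 higher, a share close to the 16.9% of all tested genes called. The lower ones were Ccnb1 (0.836, 1.124, 1.122 and 1.00 CPM at ZT6 and 0.0551, 0.0552, 0.225 and 0.273 CPM at ZT18, log2 fold change -2.69, SE 0.50, adjusted p = 5.22e-04), Ccne1 (-1.20) and Cdk2 (-0.79), and Wee1, a brake on mitosis that the clock is known to drive, was higher (7.34, 7.45, 6.28 and 3.23 CPM at ZT6 and 12.6, 11.4, 11.9 and 9.50 CPM at ZT18, log2 fold change 0.90, SE 0.19, adjusted p = 0.00157). Wee1 was not called by the cosine with lane (log2 fold change 0.48, adjusted p = 0.113) or between ZT15 and ZT9 (0.36, 0.248), nor Ccne1 without the libraries with muscle transcripts (adjusted p = 0.05996). The proliferation marker Mki67 did not pass (log2 fold change -0.52, adjusted p = 0.512).

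The unfolded protein response of the endoplasmic reticulum had Atf4 higher (log2 fold change 0.71) and Trib3 and Syvn1 (-0.32) lower among 25 genes, while its chaperone Hspa5 (log2 fold change 0.076, adjusted p = 0.515), Xbp1 (log2 fold change 0.24, adjusted p = 0.463) and Ddit3 (log2 fold change 0.27, adjusted p = 0.348) did not pass. The counts without the libraries with muscle transcripts were 1 higher and 2 lower. The shares called in this list and in the antioxidant list, 12% and 13.0%, were below the 16.9% of all tested genes. Antioxidant genes had 3 of 23 higher (2 without the libraries with muscle transcripts), Gsta3 (log2 fold change 1.29), Txnrd1 (0.44) and Nfe2l2 (0.41), which encodes NRF2, and Nqo1 (log2 fold change -0.53, adjusted p = 0.291) and Hmox1 (log2 fold change -0.024, adjusted p = 0.945) did not pass. Autophagy had 3 higher and 3 lower of 25, but 0 higher and 1 lower without the libraries with muscle transcripts. The call kept there was that of Gabarapl1, which coats autophagosomes, at 120.0, 114, 119 and 162 CPM at ZT6 and 85.0, 75.8, 79.2 and 87.9 CPM at ZT18 (log2 fold change -0.65, SE 0.12, adjusted p = 4.57e-04). Without 1 mouse at a time, calls were kept for Syvn1 in 3 (adjusted p up to 0.126, without ZT18 replicate 1), Gsta3 in 6 (adjusted p up to 0.0850, without ZT18 replicate 2) and Nfe2l2 in 3 (adjusted p up to 0.0724, without ZT6 replicate 2) of the 8 fits, and Nfe2l2 was lost without the libraries with muscle transcripts (adjusted p = 0.107). Syvn1, Gsta3 and Gabarapl1 were not called by the cosine with lane (adjusted p = 0.633, 0.144 and 0.0646). Haem and NAD metabolism had 2 higher and 4 lower of 20 (2 and 2 without the libraries with muscle transcripts), and branched-chain amino acid breakdown 1 and 1 of 19 (0 and 1 without them), the lower one Ppm1k (log2 fold change -0.82, adjusted p = 0.00231), the phosphatase that activates the pathway. Slc38a2, a glutamine carrier, was the 1 gene called among 12 of creatine, glutamine and carbonic anhydrase (log2 fold change 0.49). The shares called were 24% in the autophagy list and 30% in the haem and NAD list. They were 10.5% in the branched-chain list and 8.33% in the creatine list, below the 16.9% of all tested genes. None of 18 genes of the tricarboxylic acid cycle and none of 20 interferon-stimulated genes were called by edgeR or DESeq2, with median log2 fold changes of 0.06 and -0.25, and at an unadjusted p below 0.05 there were 0 and 4 genes, all 4 lower. In the other lists for which no member is given as lower, edgeR at an unadjusted p below 0.05 and DESeq2 found 0 lower members as well, and in the list of fatty acid oxidation 1 member was higher at an unadjusted p below 0.05 and 0 in DESeq2, against 0 by either in the thermogenesis list.

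**Figure D5:**
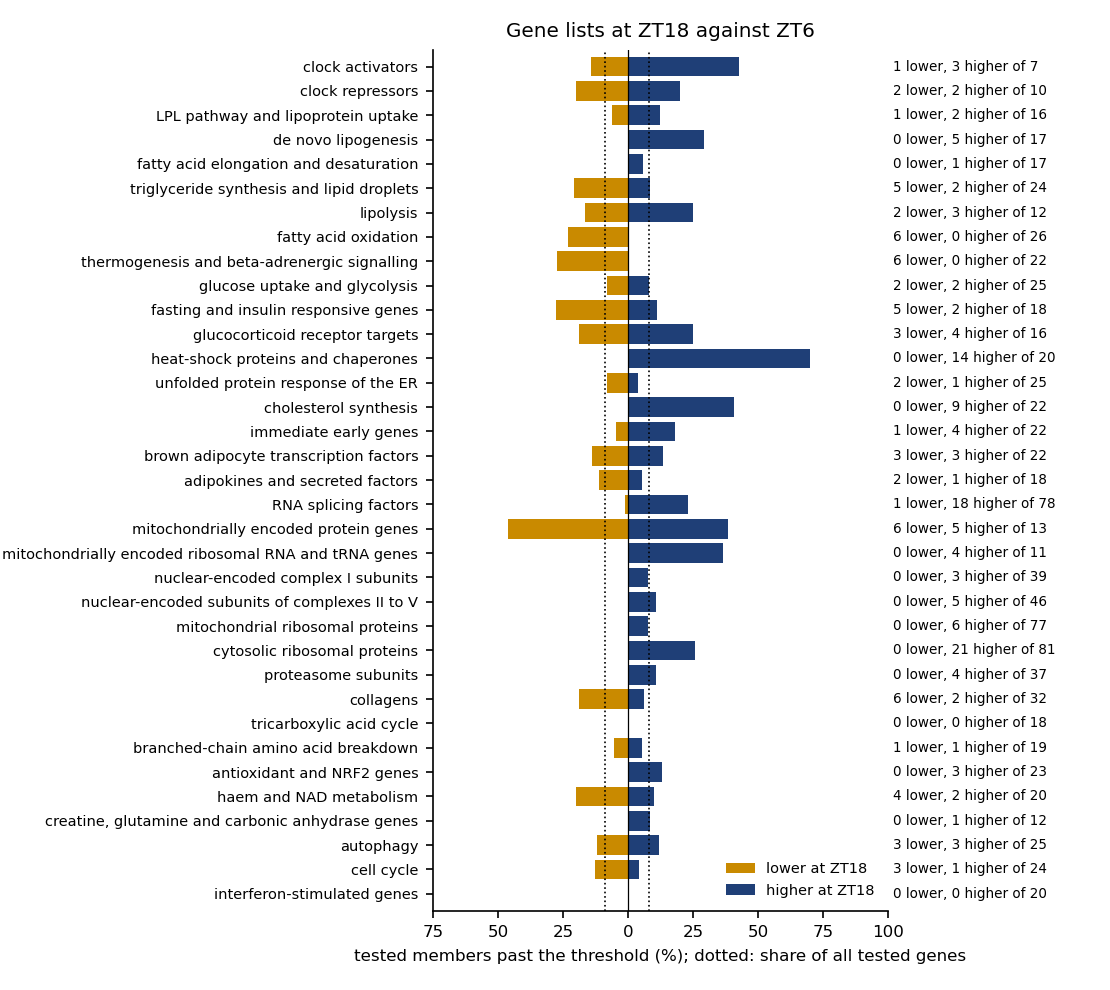
Bars give the percentage of the tested members of each gene list called higher (to the right) or lower (to the left) at ZT18, for lists with at least 7 tested members. Dotted lines mark the share of all tested genes, 8.18% higher and 8.68% lower, and heat-shock genes reach farthest to the right with 14 of 20.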

How the data were processed

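The deposited table holds raw counts per Ensembl gene and library (50686 genes, of which 20100 had no count), made by the authors from 100 bp paired-end stranded total RNA libraries with GSNAP on mm10 and HTSeq-count (0.6.1), per the submitters' processing notes. The strand setting of counting is not given in the sources used here. Counts were fitted in edgeR 4.0.16 (R 4.3.3) over all 32 libraries with TMM scaling and the quasi-likelihood test, after filterByExpr by time point, and p-values were adjusted by Benjamini-Hochberg over the 15505 tested genes with a threshold of 0.05. Levels of genes are CPM on TMM-scaled library sizes, and sums and levels of cell type markers are CPM on library sizes without TMM. The study gives 4 mice per time point, and the labels name replicates only, so p-values measure the spread between these samples. Every replicate pair differed by more than counting noise.

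The members and gene lists were chosen with earlier results of these data known. Named genes were taken from called genes without overlap, the first 12 by fold change and the first 6 by change in mean CPM in each direction, up to 4 called members per list by p, and members a list is known for. A few further list members were named after their values were seen, and some called members of the lists are counted but not reported here by name. Alternatives were other scalings, filters and thresholds, DESeq2 1.42.0, a replicate block, a cosine with lane, and leaving out mice. Promoters came from RefSeq for GRCm38.p6, and gene positions, exonic lengths and exon overlaps from the GENCODE annotation of the mouse. The scripts were tested on simulated data.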

Additional observations from a re-analysis of the deposited data

Results flagged for a closer look

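The level of each of the 214 named genes was examined in each group of 4 mice, 428 groups in all, for a mouse that lay far from the other 3 (by Dixon's ratio of gap to range). By chance about 1 group in 20 is marked in this way, and 22 were marked here. In ZT6 replicate 2, the light-phase mouse with muscle transcripts, Fos stood at 14.7 CPM while the rest of the group held 0.505 to 1.67 CPM, Egr1 at 143 CPM against 8.69 to 23.6 CPM, Col1a1 at 223 CPM against 69.3 to 93.6 CPM and mt-Nd4l at 2.60 CPM against 3.14 to 3.23 CPM. In ZT18 replicate 4, the mouse with the most muscle transcripts, Smtnl2 was high at 27.5 CPM, Mt2 at 5.73 CPM and Rora at 23.7 CPM, while Nfe2l2 was low at 84.6 CPM and Becn1 at 61.0 CPM. In ZT18 replicate 3 the high values were Cideb at 4.17 CPM, Cpt1a at 14.5 CPM and Ndufa2 at 138 CPM. The part of muscle transcripts in these values was not tested.

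Among the libraries without muscle transcripts, ZT6 replicate 1 held 101 CPM of Hsp90aa1 against 60.5 to 66.3 CPM in its group. ZT6 replicate 3 was high in Bhlhe40 (199.99 CPM against 113 to 122 CPM), Trib3 (14.0 CPM) and Col7a1 (3.81 CPM), and ZT6 replicate 4 in Gabarapl1 (162 CPM), Col4a2 (361 CPM) and Mrpl45 (56.4 CPM). At ZT18, replicate 1 was low in Cd36 (1660.4 CPM against 1817 to 1834 CPM) and high in Srebf2 (43.9 CPM), and replicate 2 was high in Retn (59.6 CPM against 35.1 to 37.3 CPM).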

How the results depend on the processing

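Of the alternatives, normalization by DESeq2 size factors or by library size alone, leaving out mitochondrially encoded genes, filtering without groups, no filter, the 8 libraries fitted alone, DESeq2 and the 24 h cosine with or without lane kept the count of 2615 genes within 1.5 times. A test against a 1.5-fold change left 88 genes (46 higher, 42 lower), and an adjusted p below 0.01 left 1162 (563 and 599). Without the 3 libraries with muscle transcripts, an alternative chosen after seeing the data, 1536 genes were called (796 and 740) and the difference in mitochondrial share was -6.37 points, where exact permutation could reach no p below 0.1. With no filter on low counts 438 genes, in place of 686, were called with the same sign between ZT15 and ZT9. Leaving out each mouse in turn gave 1737 to 2245 genes (829 to 1145 higher and 908 to 1172 lower), 531 to 636 shared with ZT15 against ZT9, and a mitochondrial difference of -5.35 to -3.57 points. The lowest count, 1737 with 829 higher, came without ZT18 replicate 2. A replicate block on the mouse numbers gave 2545 genes (1240 higher, 1305 lower). The numbers did not pair the samples, with correlations of deviations of 0.44, -0.69, -0.38 and -0.30. Among the named genes, 47 lost their call under the cosine with lane. Library depth and 4 mice a group can limit the calls, and neither was varied. In simulated data with 100 genes changed at each fold, out of 15505, 49% of 1.5-fold and 80% of 2-fold changes were recovered. So few changed genes make the adjusted threshold stricter than here, so these shares need not hold for this comparison.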
